A study of Homo sapiens with 6 samples.

Results

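The collagen genes were followed in SY5Y cells, a human neuroblastoma line of sympathetic neuroblast type, in 3 libraries labelled DLX5 overexpression and 3 labelled control. DLX5 is a homeobox transcription factor known for its part in skeletal development, and the series concerns its relation to MYCN, an oncogene of neuroblastoma. The members were the 44 genes of the count table, out of 58735, that are annotated as protein coding and whose symbol is COL, a number, A and a number. They were sorted by the textbook classes into 11 fibrillar, 9 network, 10 FACIT, 7 beaded and 4 transmembrane genes, and 3 genes (COL7A1, COL15A1 and COL18A1) that belong to none of these. The cells of both groups were grown in DMEM/F12 with fetal bovine serum. The labels give neither the vector of the control cells nor the number of clones, and they do not say whether replicates are separate cultures, so a p-value speaks to the spread among these 6 libraries only, and that spread may be technical.

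Collagens are secreted proteins whose chains wind into a triple helix, and each gene encodes a chain that must find partner chains of the right kind. Fibrillar collagens pack into the banded fibrils that give tissue its tensile strength. Network collagens form sheets, such as those of basement membranes, and FACIT collagens (fibril-associated collagens with interrupted triple helices) sit on the surface of fibrils. Beaded collagens build microfibrils near cells, and transmembrane collagens are anchored in the cell membrane. In neuroblastoma, collagen is known mainly from the stroma and from tumour cells in a mesenchymal state.

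Total counts ran from 14644077 to 16886026 per library. DLX5 was at 1582, 1569 and 1677 CPM (read counts scaled to the depth of the library, here the reads in tested genes, with TMM factors) in the DLX5 libraries, against 12.4, 12.3 and 13.8 CPM in control, so every library matched its label. Of the neuroblast markers, 8 of 8 tested were lower and 0 higher with DLX5 (edgeR, adjusted p under 0.05), where 28.8% of all tested genes and 31.3% of the protein-coding ones were called lower. Their summed level lay between 1552 and 1680 CPM in the DLX5 libraries and between 3904 and 4334 CPM in control. This marker list was chosen with earlier results of these data known, so its count is a description. DBH, the enzyme that makes noradrenaline, had a log2 fold change of -1.98 ± 0.06, and the transcription factors GATA3 and PHOX2A had -1.68 ± 0.06 and -1.41 ± 0.08 (SE). TH, among the 8, lay under the low-count cutoff of 0.617 CPM in every DLX5 library. It was tested through its controls alone, so a difference was built in.

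Promoter letters are shown first for some of the members whose results are described below. Their relation to the changes was not tested. RefSeq's table (GRCh38.p14) held windows for 32 of the 44 members. No window was held there for COL1A1, COL1A2, COL2A1, COL3A1, COL5A2, COL6A1, COL6A5, COL8A1, COL9A3, COL14A1, COL20A1 and COL22A1. Each line gives the exon-free stretch nearest upstream of a RefSeq start, 5′ to 3′ on the gene's own strand. For COL11A1 the RefSeq start, at 103108522, lies inside the annotated gene, which reaches to 103108872, and so does the stretch. For COL4A1 and COL4A2, which lie head to head with 126 bases between their RefSeq starts, it gives 30 bases of the plus strand within that interval. Capitals mark, on either strand, the CCAAT box, the GC box with the letters GGGCGG, and the TATA box with the letters TATAAA. A box cut by the edge of a stretch is not marked: the COL5A3 line opens with the last letters of a CCAAT box.
COL4A1 and COL4A2, chr13:110307167-110307196, plus: gggccgagctccCCAATttgttggcgctgc
COL5A1, chr9:134641654-134641773, plus: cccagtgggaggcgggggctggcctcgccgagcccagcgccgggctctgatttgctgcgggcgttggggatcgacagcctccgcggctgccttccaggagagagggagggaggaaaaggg
COL11A1, chr1:103108523-103108642, minus: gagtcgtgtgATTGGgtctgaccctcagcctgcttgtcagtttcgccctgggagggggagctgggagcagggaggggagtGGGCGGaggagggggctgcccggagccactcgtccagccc
COL27A1, chr9:114155417-114155536, plus: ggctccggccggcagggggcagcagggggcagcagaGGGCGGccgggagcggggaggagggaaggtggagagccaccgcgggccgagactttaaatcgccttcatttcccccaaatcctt
COL5A3, chr19:10010505-10010624, minus: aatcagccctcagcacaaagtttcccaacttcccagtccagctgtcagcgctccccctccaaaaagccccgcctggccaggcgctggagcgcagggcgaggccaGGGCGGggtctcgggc
COL6A2, chr21:46097977-46098096, plus: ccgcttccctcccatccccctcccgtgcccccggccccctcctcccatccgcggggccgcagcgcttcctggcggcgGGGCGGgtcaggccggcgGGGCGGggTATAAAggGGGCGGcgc
COL23A1, chr5:178590556-178590643, minus: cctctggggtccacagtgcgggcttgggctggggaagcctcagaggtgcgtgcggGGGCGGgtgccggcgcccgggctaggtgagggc

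The windows were also searched for TAATTA and for its variant TAATTG, the core letters that DLX homeodomains are known to bind. In the 250 bases before the start, on both strands, either of these was found in 3 of the 44 windows of collagen genes and in 10.4% of all 35116 windows. The 3 windows belonged to COL4A6, COL10A1 and COL17A1, none of which was tested. The CCAAT box can share letters with a reverse-strand match of the homeodomain core that ends in G. GGGCGG was in 24 of the 44 windows, against 42.6% of all windows, CCAAT in 12 of 44, against 32.0%, and TATAAA in 8 of 44, against 10.7%. These 44 windows belong to 32 genes and some overlap, so the same box can be counted more than once. Among those that overlap are the windows of COL4A1 and COL4A2, of COL4A5 and COL4A6, and those of COL5A1. The median GC content was 64.2% in the windows of collagen genes and 58.0% in all windows. A match is a description of letters and not a binding site.

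Of the 44 collagen genes, 27 had enough reads to be tested. With DLX5, 20 of the 27 rose, 3 fell and 4 did not pass (edgeR quasi-likelihood test, Benjamini-Hochberg adjusted p under 0.05 over 17269 genes). In bulk RNA, more cells that make a collagen and more of its RNA per cell cannot be told apart. Among all tested genes 29.8% were called higher and 28.8% lower, 58.6% in either direction, and among the tested protein-coding genes 32.6%, 31.3% and 63.9%. The median log2 fold change was 0.82 over the 27 tested collagen genes and -0.002 over all tested genes. At 2-fold or more, 12 collagen genes were called higher, against 11.3% of all genes and 11.1% of protein-coding ones. In 19 of the 27 every DLX5 library lay above every control library and in 3 every DLX5 library lay below, against 31.7% and 30.8% of all genes, 62.5% in either direction. Among protein-coding genes these shares were 34.2%, 33.0% and 67.2%. COL5A3 and COL14A1 passed the filter on low counts through their DLX5 libraries alone and COL15A1 through its controls with 1 DLX5 library, so a difference was built into their presence among the tested genes. COL13A1 passed with 3 DLX5 libraries and 1 control library over the cutoff of 0.617 CPM.

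**Figure D1:**
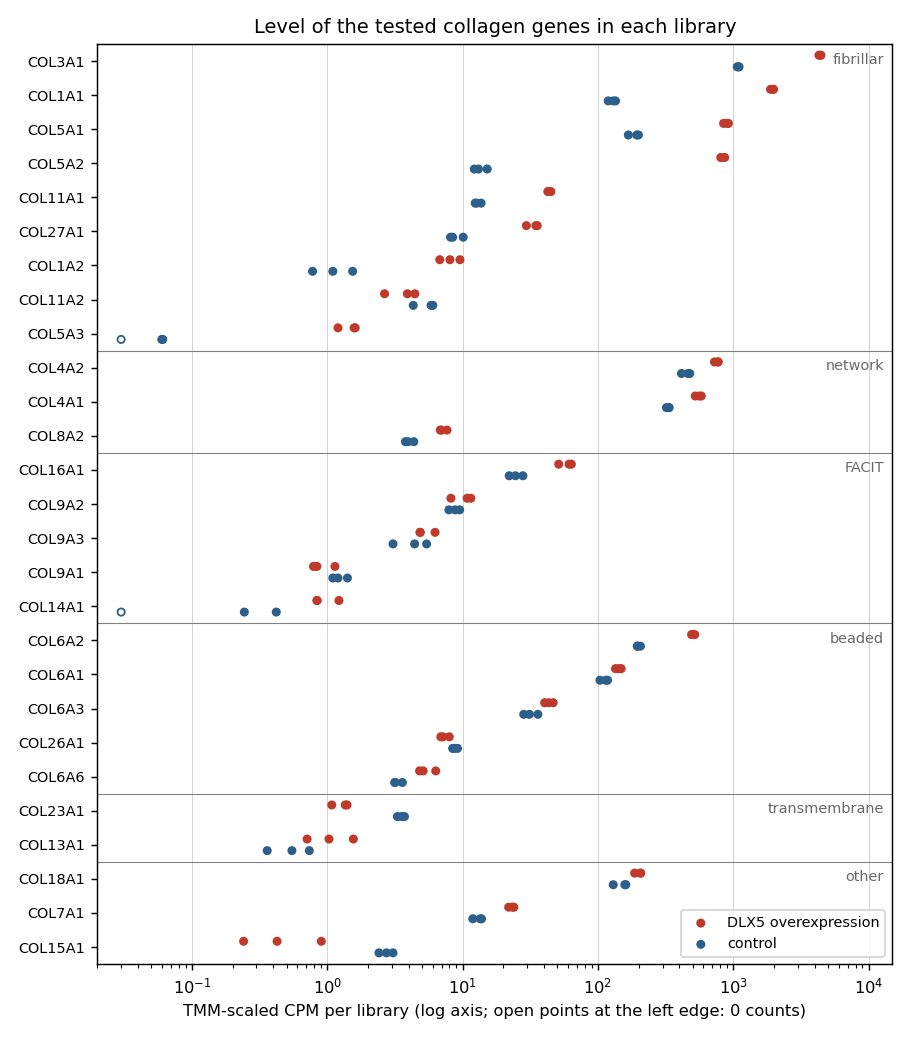
Levels of the 27 tested collagen genes in each of the 6 libraries, in TMM-scaled CPM on a log axis, with DLX5 overexpression above control in each row. The wide gaps stand in the fibrillar block: COL5A2 lies between 808.3 and 863.8 CPM in the DLX5 libraries and between 12.2 and 15.2 CPM in control.

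Collagen reads made up 1.05%, 0.977% and 1.04% of all counts in the DLX5 libraries, against 0.294%, 0.272% and 0.292% in control. Most of that gain lay in the fibrillar class. Per kilobase of gene length, which allows levels of different genes to be added, the fibrillar genes summed to 1061, 1015 and 1051 CPM per kilobase in the DLX5 libraries and to 197.9, 188.6 and 196.8 in control, a ratio of the means of 5.36. The ratio of the summed levels was 2.0 for the beaded, 1.71 for the FACIT, 1.68 for the network and 0.498 for the transmembrane class. Fibrillar genes accordingly held 81.3% ± 0.272 of the summed level per kilobase with DLX5 and 58.9% ± 0.618 in control, while network genes held 6.11% ± 0.106 with DLX5 and 14.2% ± 0.187 in control (SD, n = 3 each). These sums are descriptions and were not tested. Lengths are those of all annotated exons of a gene merged, which for a gene with long rare exons understates its level per kilobase.

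**Figure D2:**
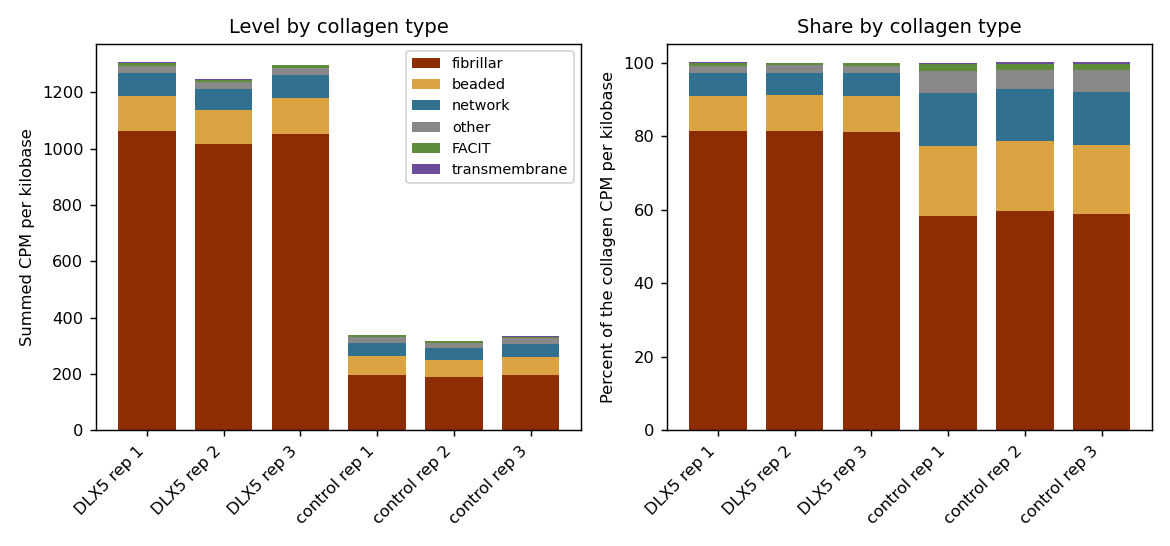
Summed CPM per kilobase of the collagen types in each library (left) and their share of the collagen total (right), with the 3 DLX5 libraries left of the 3 controls. The fibrillar class rises above 1000 CPM per kilobase in every DLX5 library and stays below 200 in every control.

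The fibrillar genes were the class with the largest changes: 8 of the 9 tested rose, each by more than 3-fold, and COL11A2 was lower. The 8 include COL5A3, which passed the filter on low counts through its DLX5 libraries alone. The shares of all tested genes given above are the background for the counts by class. COL3A1, whose homotrimer is the type III collagen of skin, vessels and other compliant tissues, was the most abundant collagen in both groups, at 4448, 4297 and 4403 CPM in the DLX5 libraries and 1103, 1070 and 1094 CPM in control. It rose 4.03-fold (log2 fold change 2.01 with a standard error of 0.06, adjusted p = 2.32e-20). All DLX5 values lay far above the controls.

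COL1A1 (ENSG00000108821, chromosome 17, 50183289 to 50201632, minus strand, GRCh38), the main chain of bone and tendon collagen, held 1971, 1886 and 1982 CPM with DLX5 and 129.8, 119.1 and 134.8 CPM in control, a 15.2-fold rise (log2 fold change 3.93 ± 0.07, SE, adjusted p = 2.68e-25). Per kilobase it was eighth among the collagen genes in control, with 13.0 CPM per kilobase, and second with DLX5, with 198. Its partner in type I collagen, COL1A2, was scarce in both groups, at 8.06, 6.78 and 9.56 CPM in the DLX5 libraries against 1.54, 0.779 and 1.10 CPM in control. COL1A2 rose too, with a log2 fold change of 2.84 ± 0.22 (SE, adjusted p = 2.59e-11). Type I collagen usually holds both chains. The counts per kilobase of COL1A1 exceeded those of COL1A2 by 277 ± 40.2 times with DLX5 and 136 ± 39.1 times in control (SD, n = 3 each).

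Type V chains nucleate fibrils and set their diameter. COL5A2 (ENSG00000204262, chromosome 2, 189031896 to 189225312, minus strand) had the largest fitted fold of the tested members, at 863.8, 808.3 and 836.5 CPM in the DLX5 libraries, against 13.1, 12.2 and 15.2 CPM in control. It rose 61.9-fold (log2 fold change 5.95 with a standard error of 0.08, adjusted p = 4.16e-27). COL5A1, the chain that joins COL5A2 in the common type V trimer, rose less, to 920.5, 847.9 and 904.5 CPM with DLX5, against 199.1, 167.8 and 193.5 CPM in control, or 4.77-fold. Per kilobase, COL5A2 and COL5A1 stood at 112 and 79.6 CPM per kilobase with DLX5, while in control COL5A2, at 1.81, was far below COL5A1, at 16.7. The remaining type V gene, COL5A3, reached 1.2, 1.61 and 1.58 CPM with DLX5. It had 71 counts over the DLX5 libraries, against 2 over the control libraries. Scaled for library depth this is a ratio of 35.1, and counting error alone gives it an exact binomial interval of 9.37 to 296 at 95%. The fitted fold was 29.8 (log2 fold change 4.90 ± 0.61, SE, adjusted p = 1.24e-07). COL5A3 could be tested only because of its DLX5 libraries, so a difference was built in. Its interval spans the 61.9-fold of COL5A2, so the order of these genes by fold holds for the estimates only.

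COL3A1 and COL5A2 are neighbours on chromosome 2, on opposite strands and with 19.1 kb between their 3′ ends. They changed by 4.03-fold and 61.9-fold. COL19A1 and COL9A1, which lie 5.08 kb apart on chromosome 6, were at low levels in both groups. COL19A1 was not tested, with 11 counts with DLX5 and 19 in control, and it overlaps LMBRD1, which has 1766 counts, on the other strand. COL9A1 did not pass.

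COL11A1, which forms type XI collagen and can stand in for COL5A1 in mixed trimers, held 43.9, 42.6 and 44.9 CPM in the DLX5 libraries and 13.7, 12.7 and 12.4 CPM in control, 3.39-fold higher. COL27A1, a collagen of developing cartilage, held 35.6, 29.6 and 34.8 CPM with DLX5 and 8.44, 8.15 and 10.1 CPM in control, 3.74-fold higher. Neither pair of groups overlapped. COL11A2, the second type XI chain, was lower, at 3.91, 2.65 and 4.44 CPM with DLX5 and 6.03, 4.32 and 5.85 CPM in control (log2 fold change -0.55 ± 0.20, SE, adjusted p = 0.0194). Its groups overlapped, and its adjusted p was 0.121 when DLX5 overexpression replicate 2 was left out, 0.0661 when control replicate 1 and 0.0769 when control replicate 3 was left out, and 0.0586 and 0.073 with limma on log2(FPKM + 1) and log2(FPKM + 0.1). COL2A1, the cartilage collagen, and COL24A1 were not tested: COL2A1 had 21 counts with DLX5 and 27 in control, and COL24A1 had 0 with DLX5 and 2 in control.

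**Figure D3:**
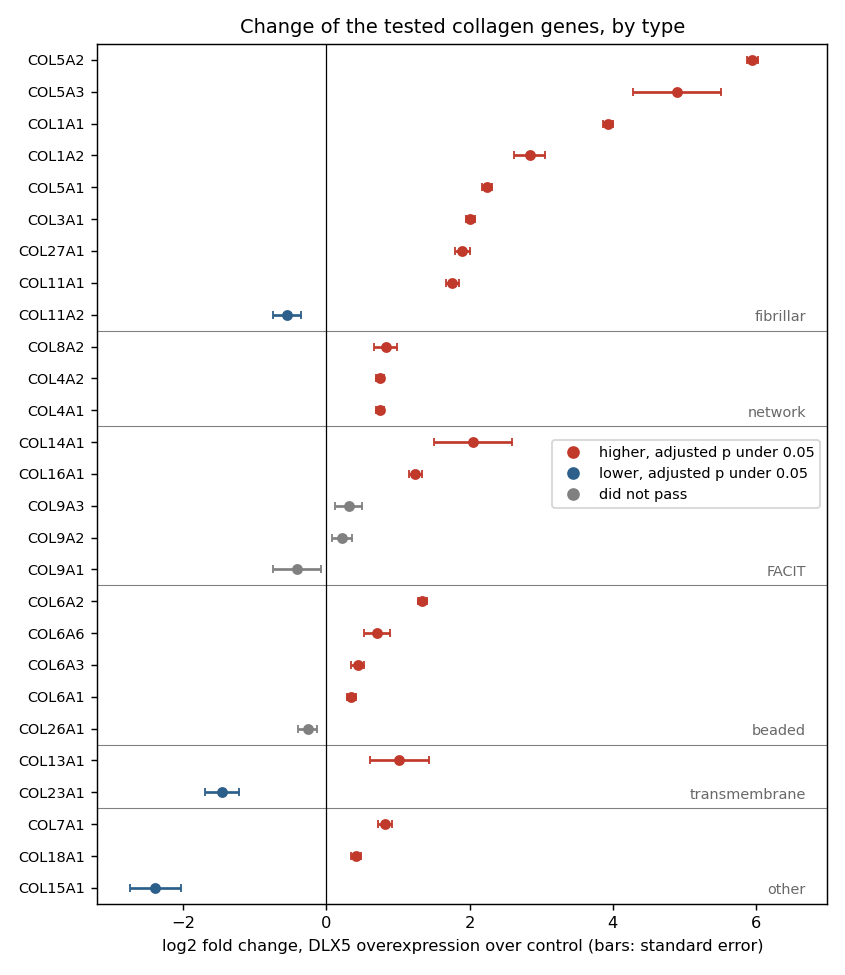
Log2 fold change of each tested collagen gene, DLX5 overexpression over control, with its standard error, ordered within the types. COL5A2 at 5.95 and COL15A1 at -2.39 mark the ends of the range.

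Network collagens rose by smaller amounts, 3 of 3 tested, where 29.8% of all tested genes were called higher. The other 6 of the 9 genes had too few reads to be tested. COL4A1 and COL4A2 encode the chains of the basement membrane collagen found in almost all tissues. COL4A1 held 580.2, 523.6 and 558.8 CPM in the DLX5 libraries against 335.4, 320.8 and 334.5 CPM in control. COL4A2 held 774.4, 726.5 and 770.6 CPM with DLX5 against 477, 414.5 and 461.4 CPM in control. Both rose 1.68-fold, each with a log2 fold change of 0.75 ± 0.06 (SE), adjusted p = 2.53e-11 for COL4A1 and 6.77e-11 for COL4A2. The genes overlap in the annotation on opposite strands, and no source used here says whether reads were assigned by strand, so their reads in the overlap cannot be told apart.

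The type IV genes come as 3 head-to-head pairs, and the genes of the other pairs had too few reads to be tested. COL4A3 had 12 counts with DLX5 and 27 in control, COL4A4 had 6 and 8, COL4A6 had 1 and 2, and COL4A5 had 0 in all 6 libraries. COL8A2, a collagen of the corneal basement membrane, rose 1.78-fold, to 7.16 ± 0.443 CPM with DLX5 against 4.03 ± 0.296 CPM in control (SD, n = 3 each; adjusted p = 6.15e-05, edgeR). COL8A1 had 2 counts in each group. COL10A1, the marker of hypertrophic cartilage, had 1 count with DLX5 and 15 in control, and it overlaps NT5DC1, which has 2371 counts, on the other strand.

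Of the beaded genes, the 4 type VI genes that could be tested rose, though by unequal amounts. COL6A2 held 503, 491.8 and 519.2 CPM in the DLX5 libraries and 206.1, 195.6 and 196 CPM in control, 2.53-fold higher. COL6A1, which lies 93.0 kb before it on chromosome 21, held 142.9, 134.8 and 148.5 CPM with DLX5 and 117.7, 103.5 and 114.2 CPM in control, 1.27-fold higher. COL6A3, the long chain of type VI microfibrils, held 43.2, 46.7 and 40.4 CPM with DLX5 and 28.3, 31.2 and 36.0 CPM in control, 1.36-fold higher. The groups did not overlap for any of these, and the adjusted p was 7.71e-17 for COL6A2, 4.41e-05 for COL6A1 and 8.59e-05 for COL6A3. COL6A6 rose 1.63-fold, to 5.42 ± 0.802 CPM with DLX5 against 3.31 ± 0.249 CPM in control (SD, n = 3 each). COL26A1 did not pass (log2 fold change -0.26 ± 0.13, SE, adjusted p = 0.104), although its 3 DLX5 libraries lay below the controls. COL6A5 had 0 counts with DLX5 and 6 in control, and COL28A1 had 10 and 5.

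Of the 10 FACIT genes 2 rose, 3 did not pass and 5 were too low to be tested. The 2 of 5 tested lie near the 29.8% of all tested genes and 32.6% of protein-coding ones called higher. COL16A1 rose 2.36-fold, to 63.6, 51.3 and 61.2 CPM in the DLX5 libraries against 27.9, 22.1 and 24.6 CPM in control (adjusted p = 5.73e-12). COL14A1, which binds fibrils in skin and tendon, rose at a low level, to 0.966 ± 0.217 CPM with DLX5 against 0.221 ± 0.211 CPM in control (log2 fold change 2.05 ± 0.54, SE, adjusted p = 0.00206). Leaving out control replicate 1 moved this to 1.52 and leaving out control replicate 2 to 2.85, and limma on log2(FPKM + 1) lost the call (adjusted p = 0.0564). COL14A1 passed the filter on low counts through its DLX5 libraries alone, so a difference was built in. The type IX genes COL9A1, COL9A2 and COL9A3, whose products coat cartilage fibrils, had log2 fold changes of -0.41 ± 0.33, 0.22 ± 0.14 and 0.31 ± 0.19 (SE) and did not pass. COL9A3 overlaps TCFL5 on the other strand, which holds more reads. COL12A1 had 7 counts with DLX5 and 10 in control, COL20A1 0 and 4, COL21A1 5 and 5, and COL22A1 21 and 12.

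The transmembrane collagens were low throughout. COL23A1 fell to 1.28 ± 0.172 CPM with DLX5, against 3.52 ± 0.211 CPM in control (SD, n = 3 each; log2 fold change -1.46 ± 0.24, SE, adjusted p = 1.17e-05). COL13A1 was called higher at 1.56, 0.71 and 1.03 CPM with DLX5 against 0.737, 0.36 and 0.548 CPM in control (adjusted p = 0.0353). Its groups overlapped, and its adjusted p was 0.241 when DLX5 overexpression replicate 1 was left out, 0.0562 when DLX5 overexpression replicate 3 was, 0.158 when control replicate 2 was and 0.0809 when control replicate 3 was. It was 0.0959 with DESeq2, and 0.119 and 0.0761 with limma on log2(FPKM + 1) and log2(FPKM + 0.1). COL17A1, the collagen of epithelial hemidesmosomes, had 2 counts with DLX5 and 16 in control, and COL25A1, the collagen of amyloid plaques, had 1 and 0.

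The remaining genes moved in both directions. COL18A1, the basement membrane collagen that gives rise to endostatin, held 207.4, 186.8 and 205.8 CPM in the DLX5 libraries and 160.7, 129.8 and 157.9 CPM in control, 1.34-fold higher. It overlaps SLC19A1, which holds 36.5% as many counts. COL7A1, which forms the anchoring fibrils of skin, held 23.4, 21.9 and 23.9 CPM with DLX5 and 13.5, 13.8 and 11.9 CPM in control, 1.77-fold higher. COL15A1, the close relative of COL18A1, fell to 0.241, 0.904 and 0.426 CPM with DLX5 against 2.41, 3.06 and 2.74 CPM in control (log2 fold change -2.39 ± 0.36, SE, adjusted p = 2.18e-06). Leaving out DLX5 overexpression replicate 1 moved this to -2.04, and leaving out DLX5 overexpression replicate 2 moved it to -3.01.

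Ratios between chains were taken within each library, where the scaling of the library drops out. Of 7 ratios, 5 did not overlap between the groups, and 2 did. Among all tested single genes 62.5% did not overlap, and the share for ratios of other gene pairs was not computed. COL5A1 over COL5A2 was 0.71, 0.699 and 0.72 in the DLX5 libraries and 10.1, 9.14 and 8.5 in control, a difference of -3.70 on the log2 scale. COL3A1 over COL1A1 was 3.25, 3.28 and 3.20 with DLX5 and 12.2, 12.9 and 11.7 in control, a difference of -1.92. In these libraries the mix of fibrillar messages thus differed, as well as their sum. This is a description, since the permutation test given below could not reach the threshold with so few libraries. COL6A1 over COL6A2 was 0.286, 0.276 and 0.288 with DLX5 and 0.575, 0.533 and 0.587 in control, a difference of -0.99. COL11A1 over COL5A1 differed by -0.50 and COL1A1 over COL1A2 by 1.05.

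By contrast, COL4A1 over COL4A2 was 0.981, 0.943 and 0.949 with DLX5 and 0.92, 1.01 and 0.949 in control, so the ranges overlapped. COL6A3 over COL6A1 overlapped as well, at 0.0823, 0.0943 and 0.0741 with DLX5 and 0.0656, 0.0821 and 0.0858 in control. With 3 libraries against 3, the exact permutation test (two-sided) cannot go below p = 0.1. That was the p of each of the 5 ratios whose groups did not overlap (0.14 when adjusted over the 7), and it was 0.9 for COL4A1 over COL4A2 and 0.6 for COL6A3 over COL6A1. COL4A5 over COL4A6 could not be formed because of counts of 0.

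**Figure D4:**
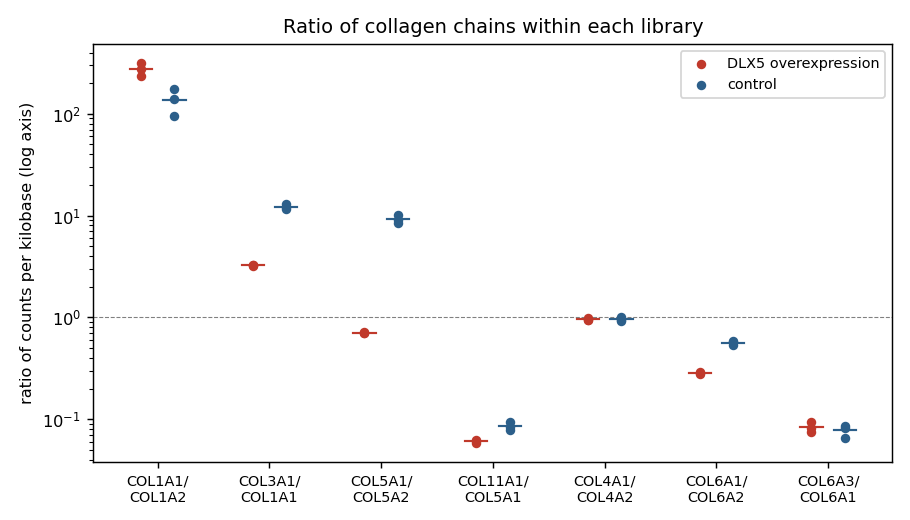
Ratio of the counts per kilobase of 2 collagen genes within each library, on a log axis, with DLX5 overexpression left of control and a short line at each mean. COL5A1 over COL5A2 lies near 0.71 with DLX5 and near 9.24 in control, whereas COL4A1 over COL4A2 lies at 0.958 with DLX5 and 0.961 in control.

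Across the 27 tested members the log2 fold change, taken with its sign, had a Pearson r of -0.1 with the log2 level per kilobase in control. The genes share the same libraries and the control level enters both measures, so this r is a description only. In control, COL3A1, COL6A2, COL4A2, COL4A1 and COL6A1 led the order of levels per kilobase, with 160, 37.0, 23.4, 22.4 and 20.9 CPM per kilobase. With DLX5 the order was COL3A1, COL1A1, COL5A2, COL6A2 and COL5A1, with 643, 198, 112, 93.7 and 79.6 CPM per kilobase. COL5A2 was twelfth in control.

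Genes whose products make, bind or cut collagen were read beside the members, from a list of 51 genes. That list was chosen with earlier results of these data known, so its counts are a description and not a test of an excess. Of the 46 tested, 33 rose and 6 fell, 7 others did not pass, where 29.8% of all tested genes were called higher, 28.8% lower and 58.6% either way. The median log2 fold change of the 46 was 0.62, against -0.002 for all tested genes. These shares are also the background for the counts by role. The cross-linking enzymes rose, 5 of 5: LOX by a log2 fold change of 3.40 ± 0.08, LOXL4 by 3.71 ± 0.11, LOXL2 by 1.70 ± 0.06 and LOXL3 by 0.56 ± 0.08 (SE). Of 12 tested genes of helix hydroxylation and glycosylation, 9 rose and 1 fell, the collagen galactosyltransferase COLGALT2 (named after its values were seen), at 8.02 ± 1.09 CPM with DLX5 and 10.1 ± 0.546 CPM in control (SD, n = 3 each). The prolyl 3-hydroxylase P3H1 rose by 1.55 ± 0.07, its partner CRTAP by 1.12 ± 0.06, and the subunits of prolyl 4-hydroxylase P4HA2 and P4HB by 1.2 ± 0.07 and 0.90 ± 0.06. PLOD2, the untested gene of this role, had 13 counts with DLX5 and 47 in control.

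Of 9 genes of folding and secretion, 7 rose and 0 fell, among them the collagen chaperone SERPINH1 by 1.06 ± 0.06, the collagen-binding protein SPARC by 1.0 ± 0.06, the prolyl isomerase FKBP10 by 0.61 ± 0.06 and the transcription factor CREB3L1, which drives collagen secretion in osteoblasts, by 2.07 ± 0.12 (log2 fold change ± SE). Propeptide removal was split, with 4 of 7 tested higher and 1 lower. The C-proteinase BMP1 rose by 1.39 ± 0.07, its relative TLL2 by 2.69 ± 0.30 and the enhancer PCOLCE by 0.47 ± 0.06. ADAMTS2, which cuts the N-propeptides of fibrillar procollagens, fell by 2.56 on the log2 scale, to 13.0 ± 2.62 CPM with DLX5 against 76.8 ± 5.75 CPM in control (SD, n = 3 each).

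Of 8 collagen receptors, 5 rose and 2 fell. ITGA10, among the 5, passed the filter on low counts through its DLX5 libraries alone, so a difference was built in. The endocytic receptor MRC2 rose by 1.48 ± 0.06 and the receptor kinase DDR2, which binds fibrillar collagen, by 1.24 ± 0.06, while the integrin chains ITGA11 and ITGA2 had log2 fold changes of -2.10 ± 0.11 and -0.82 ± 0.08 (SE). Of 5 tested proteases that cut collagen, 3 rose and 2 fell, which is 5 of 5 called where 58.6% of all genes were. FAP rose by 2.50 ± 0.10 and the membrane collagenase MMP14 by 0.98 ± 0.10, and the gelatinases MMP9 and MMP2 had log2 fold changes of -1.33 ± 0.18 and -0.42 ± 0.06 (SE). The interstitial collagenases MMP1, MMP8 and MMP13 were not tested, with 2, 0 and 2 counts with DLX5 and 13, 0 and 3 in control.

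**Figure D5:**
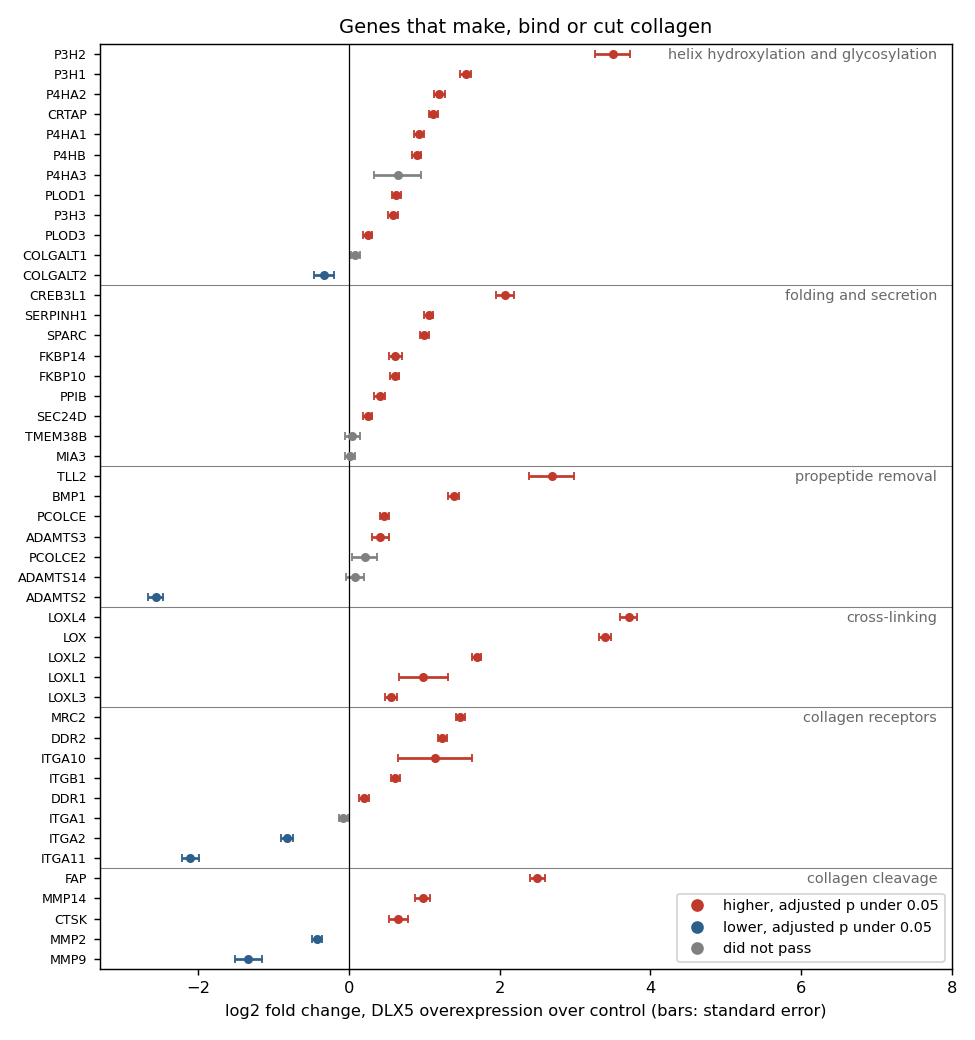
Log2 fold change of the 46 tested genes that act on collagen, DLX5 overexpression over control, with standard errors, grouped by role. All 5 cross-linking enzymes lie right of 0, and ADAMTS2 at -2.56 and ITGA11 at -2.10 lie farthest left.

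Markers of other cell types were read beside the collagen genes. The background for the counts below is that 29.8% of all tested genes were called higher, 28.8% lower and 58.6% either way. Lists with few tested genes cannot be told from these shares. The lists were chosen with earlier results of these data known, so their counts are a description. Of the 9 fibroblast and smooth muscle markers, which include FAP of the collagen cleavage list, 8 were tested, of which 7 rose and 0 fell. Their sum lay between 794.4 and 804.1 CPM in the DLX5 libraries and between 416.1 and 431.2 CPM in control. LUM, a proteoglycan that binds collagen fibrils, rose by a log2 fold change of 3.21 ± 0.09, the protease FAP by 2.50 ± 0.10, and the smooth muscle proteins TAGLN and ACTA2 by 1.27 ± 0.06 and 1.15 ± 0.07 (SE). The only tested marker of this list that did not pass was PDGFRA (-0.15 ± 0.08), and DPT, a dermal fibroblast marker, had 8 counts with DLX5 and 10 in control. Of 6 epithelial markers 4 rose and 1 fell, with a sum of 347.3 to 368.5 CPM with DLX5 and 19.25 to 22.41 CPM in control, most of it the keratin KRT18. KRT18 rose by a log2 fold change of 4.43 ± 0.08, its partner KRT8 by 4.35 ± 0.15, the tight junction protein CLDN7 by 3.54 ± 0.26 and the cadherin CDH1 by 3.68 ± 0.28 (SE), while KRT19, picked out once its values were known, had 10 counts with DLX5 against 131 in control and was lower. The Schwann list summed to 8.331 to 8.543 CPM with DLX5 and 4.02 to 5.579 CPM in control (2 of 4 tested higher, 1 lower). ERBB3 was higher, with a log2 fold change of 2.32 ± 0.24, and S100B was lower, with -2.75 ± 0.40 (SE), with SOX10 at 5 counts with DLX5 and 12 in control, and FOXD3 at 0 with DLX5 and 1 in control. The endothelial list summed to 3.967 to 4.903 CPM with DLX5 and 0.536 to 1.218 CPM in control (2 of 3 tested higher). The receptor TEK rose to 111 counts with DLX5, against 6 in control, and the adhesion molecule PECAM1 to 41 counts with DLX5, against 2 in control, with CDH5 at 1 count with DLX5 and 0 in control. The chondrocyte list summed to 20.06 to 22.43 CPM with DLX5 and 17.46 to 18.43 CPM in control, most of it SOX9 (1 of 2 tested higher), and aggrecan (ACAN) had 2 counts with DLX5 and 1 in control. The blood list summed to 0.67 to 1.2 CPM with DLX5 and 0.4199 to 0.975 CPM in control (0 of 1 tested passed), with PTPRC at 0 counts with DLX5 and 4 in control. CDH1, TEK and PECAM1 passed the filter on low counts (0.617 CPM) through their DLX5 libraries alone, and KRT19 and S100B through their controls alone. A difference was thus built into the presence of these genes among those tested. The part of any of these marker lists in the collagen changes was not tested.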

How the data were processed

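RNA of 6 SY5Y libraries was extracted with Trizol, and libraries were made with NEBNext Ultra RNA reagents, per the labels' protocols. The deposited counts are whole reads per gene. The submitters' processing notes name HISAT2 2.0.5, featureCounts 1.5.0-p3 and hg19, but all 58735 genes carry the identifiers, starts and ends of GENCODE 29 on GRCh38, so GRCh38 coordinates are given. The FPKM values, deposited beside the counts, served only as an alternative. The gene lengths deposited with the counts equal the union of GENCODE exons for 44 of 44 members.

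Counts were fitted with edgeR 4.0.16 in R 4.3.3: filterByExpr (17269 of 33755 genes with any count), TMM factors and the quasi-likelihood test, with p-values adjusted after Benjamini and Hochberg over the 17269 genes. The standard error is the log2 fold change over the square root of F. Exact counting intervals (95%) cover counting error only. DESeq2 1.42.0 and limma 3.58.1 served as alternatives, and figures used matplotlib 3.10.9.

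Values in every library are given for members of 10 CPM or more, their chain partners, and members past a log2 fold change of 3. They are also given for COL11A2, COL13A1 and COL15A1, which lie outside that rule. For pathway lists, the 4 genes with the smallest adjusted p are given, and some others are named. The members and lists were chosen with earlier results of these data known. Within a group, chi-square per degree of freedom between libraries was 2.31 to 5.42, where sampling alone gives about 1, so none was taken for a copy.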

Additional observations from a re-analysis of the deposited data

How the results depend on the processing

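The 20 higher and 3 lower collagen genes were recounted under other settings. Leaving out each library in turn gave 19 to 21 higher and 2 to 3 lower collagen genes, 32 higher and 5 to 7 lower pathway genes, and 4837 to 5061 higher and 4440 to 4780 lower genes in all. With no filter on low counts 5 collagen genes were lower, since COL10A1 (1 count with DLX5 and 15 in control, adjusted p = 0.0177) and COL17A1 (adjusted p = 0.0323) were then tested. A minimum change of 2-fold left 12 higher collagen genes, 15 higher and 3 lower pathway genes, and 1944 higher and 895 lower genes in all. With the replicate number as a block, 20 collagen genes were higher and 3 lower. In pairs of libraries the exact sign-flip p of each of the 5 chain ratios that did not overlap was 0.25, the smallest that 3 pairs allow. Deviations of same-numbered libraries correlated at 0.00688, 0.0944 and -0.0399, so the numbers were not taken to pair them. No direction of a tested collagen gene turned in 430 refits over 27 genes and 16 settings, where 414 kept their side of the threshold, 13 lost it (COL11A2, COL13A1 and COL14A1) and 3 gained it (COL9A2 without DLX5 overexpression replicate 2, COL9A3 without control replicate 3 and COL26A1 with no scaling factors). Leaving out single libraries, the log2 difference of COL4A1 over COL4A2 ran from -0.03 to 0.04, that of COL6A3 over COL6A1 from -0.01 to 0.19, and that of COL1A1 over COL1A2 from 0.82 to 1.25. For the 17 untested members, depth is the limit: a count of 0 does not show that a gene is silent.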

Other observations

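Collagen loci outside the protein-coding symbols had few reads. COL6A4P2, the unitary pseudogene of a type VI chain, had 38 counts with DLX5 and 10 in control. The antisense genes COL4A2-AS1, COL18A1-AS1, COL4A2-AS2, COL18A1-AS2 and COL5A1-AS1 had 14, 12, 5, 3 and 4 counts with DLX5 and 14, 7, 7, 8 and 0 in control. COL6A4P1 and COL11A2P1 had 0 counts in both groups.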
